A study of Mus musculus with 15 samples.

Results

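The comparison of the MET inhibitor PHA with its vehicle was made on 6 of the 15 arrays of a mouse mammary tumour series: 3 arrays of mammospheres given PHA and 3 of mammospheres given DMSO. They were chosen by their titles and by a code within the titles, shared by the arrays here called the first set. The titles do not say what the code stands for. The study set out to treat mammospheres with inhibitors of the Wnt and MET pathways, singly or combined, against DMSO. The other arrays of the first set are 3 of mammospheres given ICG, and a second set with its own code holds 3 DMSO arrays and 3 arrays of PHA and ICG together. Mammospheres are floating spheres grown from single-cell suspensions, here of primary mammary gland tumours, under conditions that prevent attachment and differentiation. Spheres of every group came from FVB/N mice of genotype WAPCre-DNbcatn;HGF, were grown for 7 days, and then stayed in DMSO, PHA, ICG or PHA+ICG for 24 h, and 250 ng of total RNA went onto each Affymetrix array. All groups, the controls included, therefore carry the HGF allele, HGF being the ligand of MET. The WAP (whey acidic protein) promoter is active in the secretory epithelium of the mammary gland, and in the genotype name it stands before Cre; the labels do not spell out which promoter drives HGF. Doses, full compound names and the ages of the mice are not given in the labels. Nothing in the labels tells separate cultures or animals from repeats of 1 RNA, so a p-value here is set by array-to-array spread alone, and that spread may be technical.

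MET is the receptor tyrosine kinase for hepatocyte growth factor, HGF, which is secreted as an inactive precursor and cut to its active form by serine proteases such as HGFAC and matriptase (St14). Bound MET signals through GAB1 and GRB2 to the RAS-ERK and PI3K-AKT cascades, and ERK activity induces immediate early factors, AP-1 and ETS factors and, through them, matrix-degrading proteases. In mammary epithelium the pathway is known for branching, motility and invasion.

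Values are the deposited log2 signals, so a difference of 1 is a 2-fold difference, and each gene is represented by its brightest probe set. A gene is called where its limma p, adjusted by Benjamini-Hochberg over all 18193 genes in a fit of the 9 arrays of the first set, is under 0.05. With PHA, 1858 genes (10.2%) were called, of which 572 (3.14%) were higher and 1286 (7.07%) lower. The larger changes ran mostly downward: 129 genes (0.709%) were at least 2-fold lower and 7 (0.0385%) at least 2-fold higher. The median change was 0.33 among genes called higher and −0.45 among genes called lower, against 0.020 over all genes. Before adjustment 4634 genes (25.5%) had a p under 0.05, and the 3 PHA arrays lay wholly above the 3 DMSO arrays for 15.4% of all genes and wholly below them for 16.2%, together 31.6%.

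DMSO replicate 1 stood apart from the other DMSO arrays in several lists given below, with lower fibroblast, macrophage and mitotic genes, and without it 1691 genes were called. Without PHA replicate 1, PHA replicate 2, DMSO replicate 2 or DMSO replicate 3 the calls number 1087, 1005, 1062 and 1210. The higher calls number 280, 271, 350, 320 and 319 without PHA replicate 1, 2 or 3 or DMSO replicate 2 or 3, and the lower calls 807, 734 and 742 without PHA replicate 1, PHA replicate 2 or DMSO replicate 2. The genes called lower by at least 2-fold stay between 110 and 151 whichever array is left out. The share of calls that are higher, 30.8%, becomes 45% after quantile normalization and 55.9% after centring each array on its median. When all 15 arrays set the spread, 182 genes are called, 74 of them lower by at least 2-fold. The median standard deviation of a gene over 3 arrays was 0.0966 in the DMSO group and 0.0850 in the PHA group of the first set, and 0.181 and 0.251 in the DMSO and PHA+ICG groups of the second. The 3 arrays of each group limit the precision of every value that follows.

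**Figure D1:**
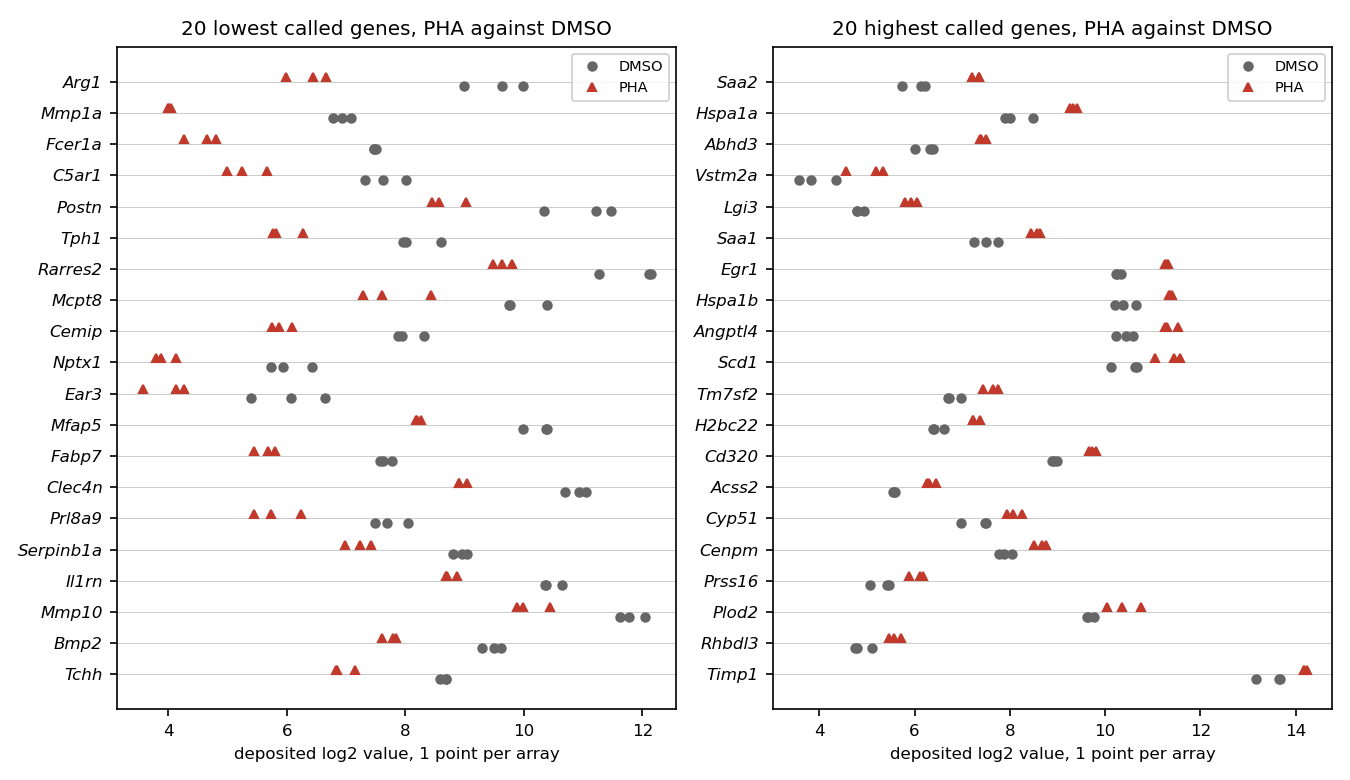
Deposited log2 values of the 20 called genes with the lowest and the 20 with the highest change, one row per gene and one point per array (grey circles, DMSO; red triangles, PHA). The PHA arrays lie wholly on one side of the DMSO arrays in every row, as the choice of these genes requires, and the decreases, down to −3.18 for Arg1, are larger than the increases, up to 1.28 for Saa2.

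The deepest fall was that of Arg1, arginase of the urea cycle and a marker of alternatively activated macrophages. It read 9.00, 9.64 and 9.99 in the DMSO arrays and 6.66, 6.44 and 5.98 in the PHA arrays. Every PHA array was more than 2 units below the lowest DMSO array, and the change was −3.18 (SE 0.30, n = 3 and 3, limma adjusted p = 0.000218), 9.09-fold lower. The 20 largest decreases also took in the collagenase Mmp1a (−2.92), the IgE receptor chain Fcer1a (−2.90), the C5a receptor C5ar1 (−2.35), periostin Postn (−2.33), tryptophan hydroxylase Tph1 (−2.24), chemerin Rarres2 (−2.20), the basophil protease Mcpt8 (−2.19) and the hyaluronidase Cemip (−2.14). The list went on through the neuronal pentraxin Nptx1 (−2.10), the eosinophil ribonuclease Ear3 (−2.05), the microfibril protein Mfap5 (−2.03), the fatty acid binding protein Fabp7 (−2.02), the C-type lectin Clec4n (−1.95), the prolactin family member Prl8a9 (−1.94), the protease inhibitor Serpinb1a (−1.73), Bmp2 (−1.71), Mmp10 (−1.71), the IL-1 receptor antagonist Il1rn (−1.71) and trichohyalin Tchh (−1.70). None of these 20 calls was lost when any 1 array was left out, and 5 of the 20 were lost in the fit of all 15 arrays.

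Increases were smaller. The acute-phase gene Saa2 read 6.22, 6.13 and 5.73 with DMSO and 7.20, 7.36 and 7.36 with PHA. The PHA values lay about 1 unit above the highest DMSO value, with a change of 1.28 (SE 0.12, limma adjusted p = 0.000208), 2.44-fold higher. Its neighbour Saa1 changed by 1.05, and the heat shock genes Hspa1a and Hspa1b by 1.21 and 0.97; each pair is nearly identical in sequence, so the split of signal within it is uncertain. Other genes among the 20 largest increases were the hydrolase Abhd3 (1.18), Vstm2a (1.11), Lgi3 (1.08), Egr1 (1.02), the lipoprotein lipase inhibitor Angptl4 (0.94), the desaturase Scd1 (0.88), the histone H2bc22 (0.80), the sterol reductase Tm7sf2 (0.80), the transcobalamin receptor Cd320 (0.79), the acetyl-CoA synthetase Acss2 (0.78), Cyp51 (0.77), Prss16 (0.74), Cenpm (0.74), Timp1 (0.70), the collagen lysyl hydroxylase Plod2 (0.70) and Rhbdl3 (0.70). Of the 20 calls, 3 were lost when 1 array was left out: Scd1 without PHA replicate 1, PHA replicate 2, DMSO replicate 1 or DMSO replicate 2, Vstm2a without PHA replicate 1, PHA replicate 3 or DMSO replicate 3, and Cyp51 without PHA replicate 2. In the fit of all 15 arrays 12 of the 20 were lost. Of the 40 genes, 18 have further probe sets on the array, 25 in all, and all 25 had a difference of the same sign as the one used. Several of these, all dimmer than the one used, were near 0 or much smaller: Cemip gave −0.07 and −0.03, Nptx1 −0.02, Acss2 0.05 in 1 of 2, and C5ar1 −0.37.

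The MET axis itself changed little at the level of RNA. Of 22 measured ligands, receptors, adaptors and activating proteases, 4 fell and none rose (18.2% lower, against 7.07% of all genes), with a median change of −0.07 against 0.020 over all genes. Met read 10.24, 10.14 and 10.09 with DMSO and 9.82, 9.86 and 9.74 with PHA. The groups did not overlap, and the receptor fell by 0.35 on the log2 scale (SE 0.07, limma adjusted p = 0.0104), 1.27-fold. A dim second probe set of Met, at a mean of 4.10 with DMSO and 4.11 with PHA, gave 0.00. Hgf, for which the files do not say whether the probe set also reads the transgene, read 7.12, 7.72 and 7.47 with DMSO and 7.15, 7.19 and 7.43 with PHA. Those values overlapped, with a change of −0.18 (SE 0.14, adjusted p = 0.457). The other falls were those of the urokinase receptor Plaur (−0.80), the serine protease Tmprss13 (−0.43, lost without any array other than DMSO replicate 1) and the semaphorin Sema4d (−0.40), the ligand of the MET partner plexin B1. For Sema4d 2 dimmer probe sets gave 0.11 and 0.21. The HGF activator inhibitors Spint1 (0.16) and Spint2 (0.02), matriptase St14 (−0.10) and the related receptor Mst1r (−0.08) did not pass the test.

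Genes downstream of ERK moved in both directions. In the list of ERK feedback genes and ETS factors, 7 of 22 fell (31.8%, against 7.07% of all genes) and 1 rose (4.55%, against 3.14%), with a median change of −0.18. Ets1 read 8.70, 8.37 and 8.49 with DMSO and 7.88, 7.62 and 7.83 with PHA, a fall of 0.74 on the log2 scale (SE 0.09, limma adjusted p = 0.00116). Its groups did not overlap, and Ets2 (−0.49), the feedback inhibitors Spred3 (−0.45), Spry2 (−0.43) and Spry1 (−0.39), the AP-1 member Fosl1 (−0.40) and Etv4 (−0.33) fell by less. Without PHA replicate 1 the 7 falls became 4, Spry2, Fosl1 and Etv4 being among those lost. The ERK phosphatase Dusp6, often read as a measure of ERK output, was 11.82, 11.64 and 11.72 with DMSO and 11.94, 11.96 and 11.96 with PHA. Its change of 0.23 (SE 0.07, adjusted p = 0.0854) did not pass the test, though it did after quantile normalization (adjusted p = 0.0404) or median centring (adjusted p = 0.0497). Spry4 (0.10) and Etv5 (0.15) did not pass either, and the cytokine Lif rose by 0.63, a call lost without DMSO replicate 2 or DMSO replicate 3.

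Among 28 immediate early factors 9 fell (32.1%, against 7.07% of all genes) and 2 rose (7.14%, against 3.14%). Egr1, a zinc finger factor induced within minutes of growth factor exposure, rose from 10.25, 10.22 and 10.33 with DMSO to 11.29, 11.25 and 11.33 with PHA. The gap was many times the spread within either group, a change of 1.02 (SE 0.08, limma adjusted p = 9.44e-05). The YAP and TGF-beta target Ccn2 went the other way, from 9.76, 9.83 and 9.91 to 8.87, 8.73 and 8.77, with a change of −1.04 (SE 0.07, adjusted p = 4.07e-05). Klf4 (−0.76), Fos (−0.55), Klf6 (−0.48), Myc (−0.44) and Klf10 (−0.43) also fell, and Klf2 rose by 0.55. The calls of Myc and Klf6 are each lost without any 1 of the 3 PHA arrays, that of Myc also without DMSO replicate 1, that of Klf6 also without DMSO replicate 3, and that of Klf10 without DMSO replicate 3. Without PHA replicate 1 or PHA replicate 2 the 9 falls became 4. Jun (−0.19), Junb (−0.13), Fosb (−0.10) and Fosl2 (0.02) did not pass the test.

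**Figure D2:**
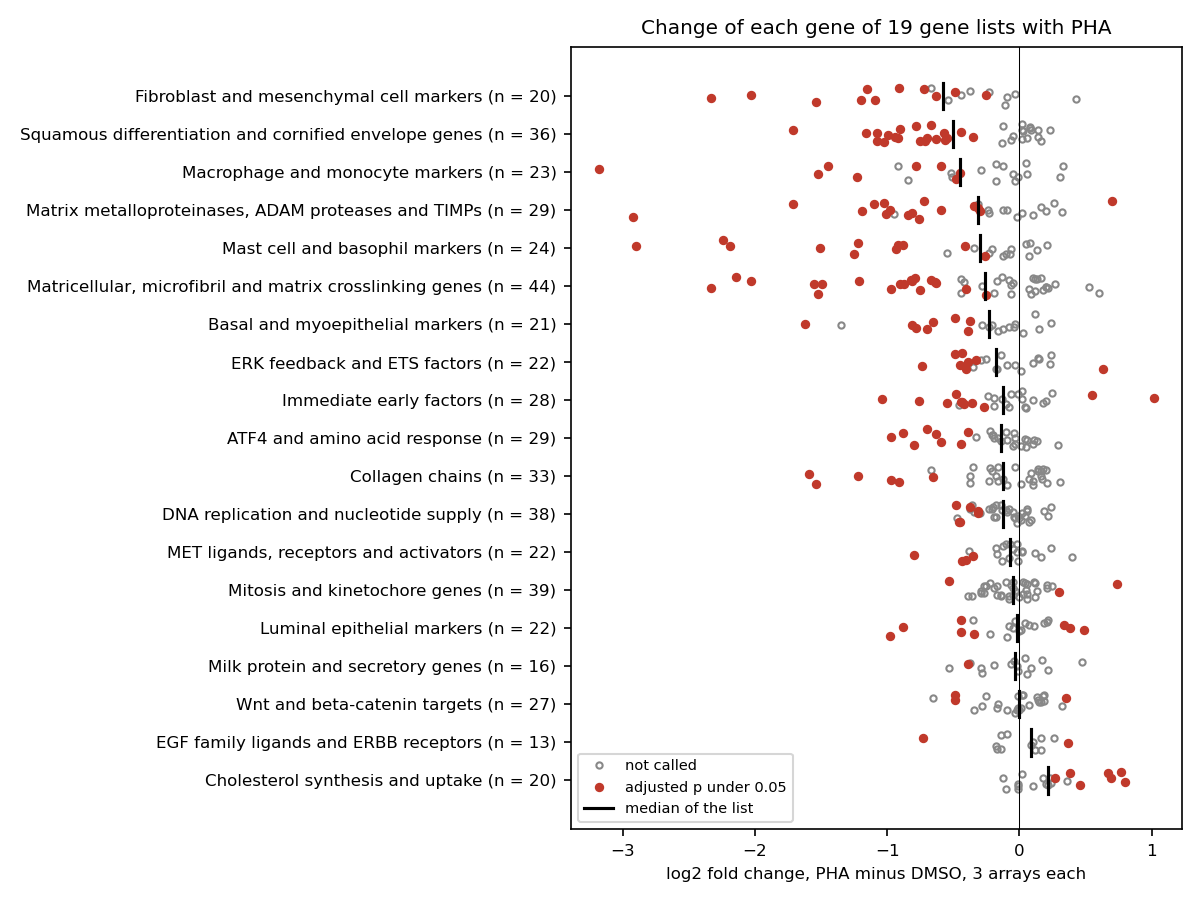
Log2 change with PHA, PHA minus DMSO, for each gene of 19 gene lists (one row per list, points spread vertically for legibility). Filled red points are genes called at an adjusted p under 0.05, open points are not called, and the black bar is the median of the list, from −0.58 for fibroblast markers to 0.22 for cholesterol synthesis.

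The largest falls among secreted proteases were those of Mmp1a and Mmp10. Of 29 measured matrix metalloproteinases, ADAM and ADAMTS proteases and their TIMP inhibitors, 15 fell (51.7%, against 7.07% of all genes) and 1 rose, with a median change of −0.31. Mmp1a, an interstitial collagenase, read 6.78, 7.09 and 6.93 with DMSO and 4.04, 3.99 and 4.01 with PHA. The PHA values are below the lower quartile of genes on those arrays, 4.92 to 4.95, and the change of −2.92 (SE 0.13, limma adjusted p = 8.62e-06) runs to the low end of the scale. Stromelysin 2, Mmp10, fell from 12.05, 11.77 and 11.63 to 9.98, 9.89 and 10.44, a bright gene in both groups (change −1.71, SE 0.19, adjusted p = 0.000427). The aggrecanase Adamts4 (−1.19), Mmp1b (−1.02), the macrophage elastase Mmp12 (−1.01), Adamts1 (−0.98), Adam12 (−0.84), Mmp19 (−0.81), the neutrophil collagenase Mmp8 (−0.76) and the collagenase Mmp13 (−0.72) followed. Mmp13 was between 12.21 and 12.28 in the PHA arrays, and its lowest DMSO value was 12.93. Mmp9 (−0.95, adjusted p = 0.137), Mmp3 (−0.24, adjusted p = 0.0523) and the membrane-bound Mmp14 (0.02) did not pass the test. The inhibitors split: Timp3 fell from 8.95, 9.09 and 8.91 to 7.85, 7.74 and 8.08, a change of −1.10, while Timp1 rose from 13.16, 13.67 and 13.66 to 14.23, 14.18 and 14.18, a change of 0.70. Both calls held without any 1 array.

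The promoters of 3 of these proteases and of the urokinase receptor Plaur are shown because they share a match to the AP-1 motif TGANTCA close to the start of transcription. Each line gives the 250 bases before the RefSeq start on GRCm38.p6, 5′ to 3′ on the gene's own strand, with the match in capitals.

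Mmp1a (chr9:7463891-7464140, plus strand): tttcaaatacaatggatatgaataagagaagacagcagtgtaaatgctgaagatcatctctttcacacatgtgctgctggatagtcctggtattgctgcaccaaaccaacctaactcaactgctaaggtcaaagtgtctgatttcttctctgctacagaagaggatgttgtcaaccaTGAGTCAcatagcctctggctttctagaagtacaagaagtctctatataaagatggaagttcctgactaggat

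Mmp10 (chr9:7502092-7502341, plus strand): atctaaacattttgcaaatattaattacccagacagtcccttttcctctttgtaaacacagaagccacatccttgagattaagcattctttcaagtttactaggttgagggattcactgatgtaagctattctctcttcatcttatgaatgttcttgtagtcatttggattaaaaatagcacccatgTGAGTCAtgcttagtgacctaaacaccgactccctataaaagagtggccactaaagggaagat

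Mmp13 (chr9:7272264-7272513, plus strand): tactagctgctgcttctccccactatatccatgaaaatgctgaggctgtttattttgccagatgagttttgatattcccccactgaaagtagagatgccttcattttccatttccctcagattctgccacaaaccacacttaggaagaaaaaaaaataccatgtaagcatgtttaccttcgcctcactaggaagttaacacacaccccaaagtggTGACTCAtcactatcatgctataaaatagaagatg

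Plaur (chr7:24462233-24462482, plus strand): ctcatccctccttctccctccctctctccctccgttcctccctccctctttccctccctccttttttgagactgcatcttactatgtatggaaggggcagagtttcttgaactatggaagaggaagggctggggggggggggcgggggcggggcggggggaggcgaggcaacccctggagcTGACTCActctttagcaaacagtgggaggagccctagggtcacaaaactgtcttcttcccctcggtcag

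The match begins 73 bases before the start in Mmp1a, 63 in Mmp10, 35 in Mmp13 and 69 in Plaur. Mmp13, Mmp1a and Mmp10 lie in one cluster of metalloproteinase genes on chromosome 9. These genes, and the motif, were picked after their values were seen, and a match is a run of letters, not a measured binding site. Of the protease list, 11 genes that fell have a promoter window in the table used, and 6 of the 11 hold the motif: Mmp1a, Mmp1b, Mmp10, Mmp12, Mmp13 and Adam19. In the whole protease list it was held by 8 of 20 genes with a window. Of the genes that fell and have a window, none held it among 11 matricellular genes, 9 mast cell and basophil markers, 8 fibroblast markers, 6 immediate early factors, 6 macrophage markers or 4 ERK feedback and ETS genes. It was held by 3 of 3 such genes of the MET list (Met, Plaur and Sema4d) and 3 of 4 of the cytokine and NF-kB list. In the complement and coagulation list 3 of 6 held it, and in the chemokine list 2 of 7. Among all genes with a window it was held by 4 of 17 in the MET list and 9 of 22 in the cytokine list. In the whole complement list the count was 3 of 12 and in the whole chemokine list 7 of 31. The whole matricellular list had 1 of 25, the mast cell list 1 of 21, and the macrophage and ERK lists 1 of 16 each. For the whole fibroblast and immediate early lists it was 0 of 12 and 0 of 22.

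Over all genes the motif was counted in windows from 250 bases before to 50 after each start, on both strands (TGANTCA is its own reverse complement). It was present in 7.81% of all 32851 windows and in 7.54% of the 14452 measured genes with a window. Among genes called lower with PHA the share was 13.3% (133 of 1001), and among those at least 2-fold lower 21.1% (19 of 90). Genes called higher had it in 6.43% (31 of 482). Genes with several starts have more windows, and among those with 1 window the shares were 6.15% of measured genes, 5.32% of genes called higher, 11.3% of genes called lower and 20% of those at least 2-fold lower. Counts were made for 14 patterns in all. For TEAD (GGAATG) the shares were 15.3% of measured genes, 12% of genes called higher, 18.2% of those called lower and 22.2% of those at least 2-fold lower, and for the stricter AP-1 pattern TGACTCA, which lies within TGANTCA, 5.33%, 4.98%, 9.79% and 16.7%. In the same order FOXO (TGTTTAC) had 3.4%, 2.49%, 3.6% and 5.56%, STAT (TTCNNNGAA) 8.57%, 7.88%, 9.29% and 6.67%, the NF-kB site 1.89%, 1.45%, 2.6% and 3.33%, CRE (TGACGTCA) 2.92%, 2.49%, 2.4% and 3.33%, and CCAAT 42%, 45.9%, 39.2% and 33.3%. A loose C/EBP pattern (TTNNNCAAN) had 34.3%, 31.1%, 38.6% and 50%, and the C/EBP palindrome TTGCGCAAT, which lies within it, was in 8 measured genes. The amino acid response pattern TGATGNAAN had 3.22%, 2.9%, 4.3% and 6.67%. The sterol element TCACNCCAC had 1.46%, 1.87%, 1.1% and 2.22%, its form TCACCCCAC, contained in it, 0.678%, 0.415%, 0.4% and 1.11%, and the heat shock element 0.609%, 0.415%, 0.3% and 0%. These shares are descriptions, without a test.

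**Figure D3:**
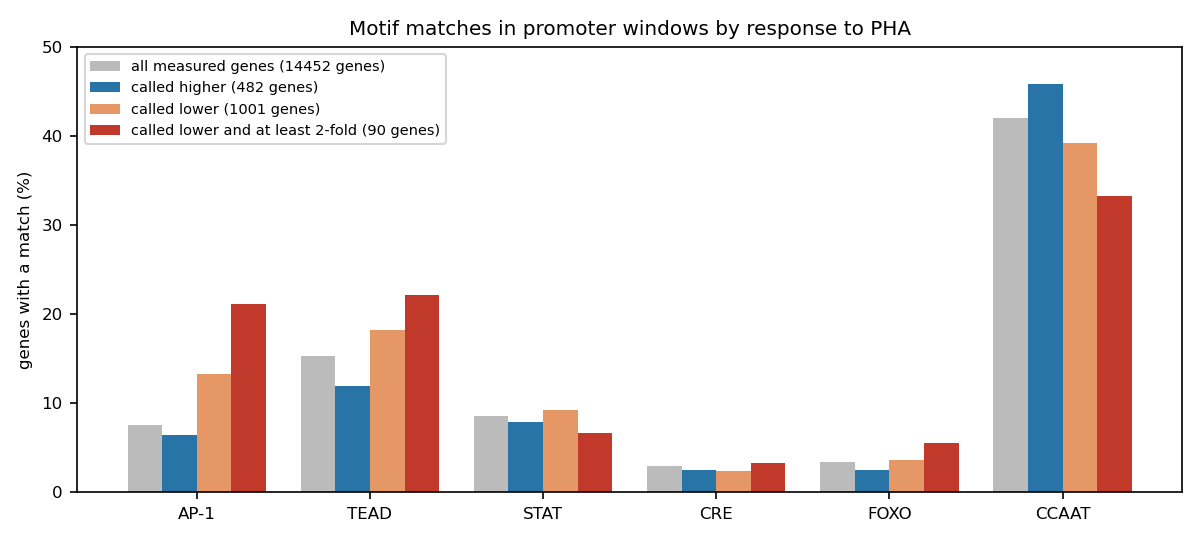
Percentage of genes whose promoter window holds each of 6 motifs, by response to PHA (grey, all measured genes; blue, called higher; orange, called lower; red, called lower and at least 2-fold). The AP-1 bars run from 6.43% among genes called higher to 21.1% among the 90 genes at least 2-fold lower. Between the same groups the TEAD bars run from 12% to 22.2% and the CCAAT bars from 45.9% down to 33.3%. The STAT, CRE and FOXO bars differ less.

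Matrix genes and markers of fibroblasts fell together. Of 44 matricellular, microfibril and crosslinking genes 19 fell (43.2%, against 7.07% of all genes) and none rose, with a median of −0.26. Of 33 collagen chains 6 fell (18.2%) and none rose. Postn, periostin, a matricellular protein of activated stroma, read 10.34, 11.47 and 11.22 with DMSO and 8.57, 8.46 and 9.03 with PHA. The 2 groups were well apart although DMSO replicate 1 was about 1 unit below the other DMSO arrays, and the change was −2.33 (SE 0.37, limma adjusted p = 0.00361). Mfap5 showed less spread, from 9.99, 10.37 and 10.39 to 8.27, 8.20 and 8.18 (change −2.03, SE 0.10, adjusted p = 1.37e-05). On the hyaluronan side, the degrading protein Cemip fell by 2.14 and the synthase Has2 by 1.52, from 6.85, 6.79 and 6.92 to 5.27, 5.25 and 5.48. Cthrc1 (−1.55), Sparcl1 (−1.49), the Wnt-induced Ccn4 (−1.21), thrombospondin Thbs1 (−0.90) and Ltbp1 (−0.81) fell as well. Of the collagens, the type VI chains Col6a1 (−1.59) and Col6a2 (−1.22), the hemidesmosome collagen Col17a1 (−0.97) and Col12a1 (−0.65) held their calls without any 1 array, while Col3a1 (−1.54) lost its call without DMSO replicate 2 or DMSO replicate 3. The type I chains Col1a1 (−0.67, adjusted p = 0.155) and Col1a2 (−0.37, adjusted p = 0.506) did not pass.

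The fibroblast markers give the cell type side of the same genes. Of 20, 11 fell (55%, against 7.07% of all genes) and none rose, with a median of −0.58. The summed linear signal of the list was 63665 to 76239 in the DMSO arrays and 51588 to 53081 in the PHA arrays. Without PHA replicate 1, PHA replicate 2, DMSO replicate 2 or DMSO replicate 3 the falls became 7, 6, 6 and 5. Averaged over the list, DMSO replicate 1 was at 9.68 against 10.21 and 10.19 in the other DMSO arrays and 9.27 to 9.33 in the PHA arrays. Pdgfra, a receptor of fibroblasts, fell from 11.21, 11.35 and 11.35 to 10.63, 10.45 and 10.67, and Vim (−0.23) and Fap (−0.03) did not pass. In bulk RNA fewer cells of a type and less RNA per cell cannot be told apart. The part of cell numbers in these results was not tested.

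**Figure D4:**
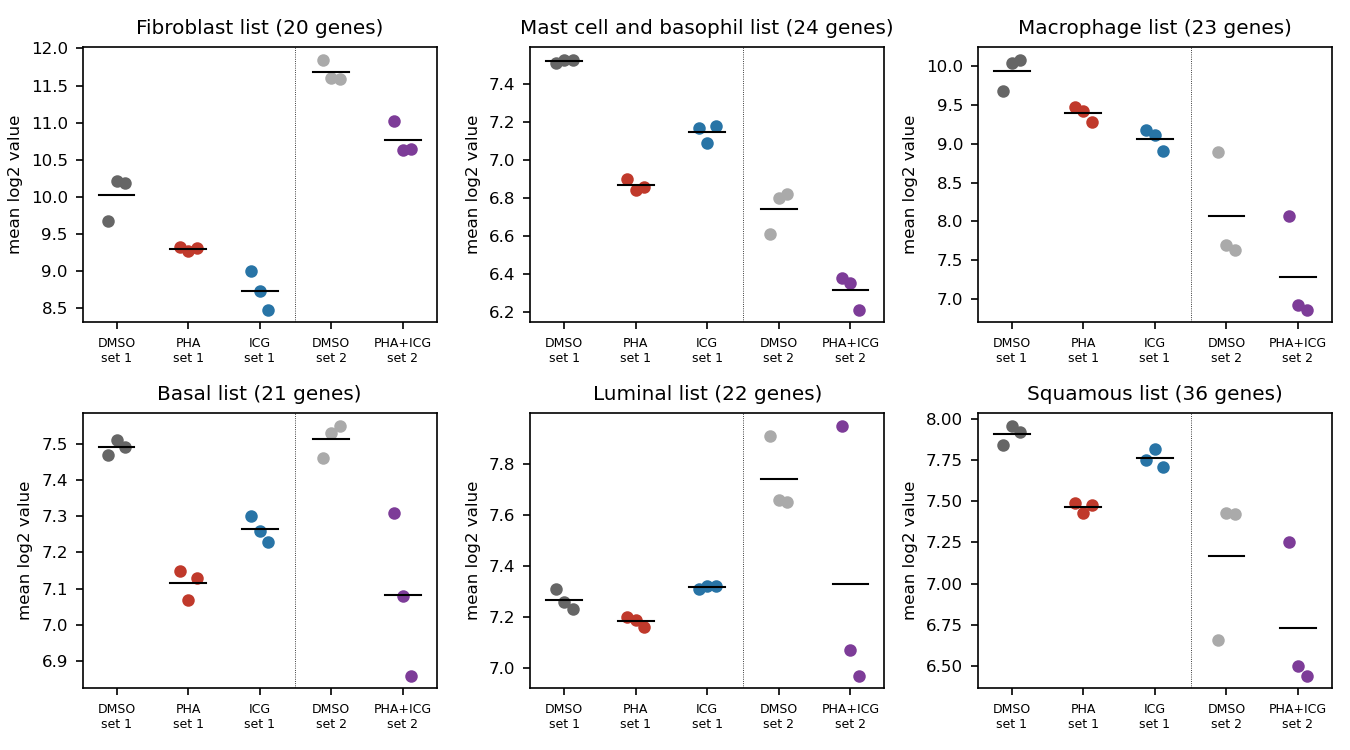
Mean log2 value over 6 lists of markers in each of the 15 arrays (points, arrays; black bars, group means; the dotted line separates the first set from the second, and each panel has its own axis). The 3 PHA arrays lie below the 3 DMSO arrays of the first set in all 6 panels, by the least in the luminal panel.

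Genes of mast cells and basophils fell strongly, but not all of them. Of 24 measured markers 11 fell and none rose (45.8%, against 7.07% of all genes), with a median of −0.30. The summed signal was 15565 to 16316 with DMSO and 11571 to 11678 with PHA. Fcer1a, the IgE-binding chain of the high-affinity receptor, was 7.48, 7.50 and 7.47 with DMSO and 4.81, 4.66 and 4.27 with PHA. The DMSO arrays are nearly equal and the PHA arrays are all far lower, below the lower quartile of genes (change −2.90, SE 0.14, limma adjusted p = 1.19e-05). Tph1, the enzyme of serotonin synthesis, fell from 8.60, 8.02 and 7.97 to 6.27, 5.82 and 5.77, a change of −2.24. Mcpt8 (−2.19), the tryptases Tpsb2 (−1.51) and Tpsab1 (−0.92), the chymases Mcpt4 (−1.25) and Cma1 (−1.22), histidine decarboxylase Hdc (−0.93) and the stem cell factor receptor Kit (−0.88) fell too. A dim second probe set of Kit gave 0.08. In contrast, carboxypeptidase Cpa3, abundant in mast cell granules, read 10.51, 10.57 and 10.59 with DMSO and 10.76, 10.74 and 10.79 with PHA (change 0.21, adjusted p = 0.127). It passed, as an increase, only after median centring (adjusted p = 0.0488). The shared receptor chain Fcer1g (−0.12) and Gata2 (−0.34) did not pass, and Il4 and the receptor chain Ms4a2 lay at or under 4.40 on every array of both groups.

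Of 23 macrophage and monocyte markers 8 fell (34.8%, against 7.07% of all genes) and none rose, with a median of −0.45. The summed signal was 87043 to 98977 with DMSO and 78329 to 85362 with PHA. Leaving out any array other than DMSO replicate 1 reduced the 8 to 5, and leaving out DMSO replicate 1 raised them to 11. The Fc receptor Fcgr1 fell from 8.70, 9.07 and 9.24 to 7.58, 7.60 and 7.26 (change −1.52, SE 0.14, limma adjusted p = 0.000208), and the receptor of CSF1, Csf1r, changed by −0.45 without overlap of the groups. Cd163 and Mrc1, scavenger and mannose receptors, fell by 1.45 and 1.23, but both calls were lost without any 1 of the PHA arrays or without DMSO replicate 2 or DMSO replicate 3. General markers did not pass: Cd68 was at 13.41, 13.41 and 13.45 against 13.40, 13.40 and 13.31, and Lyz2 and Adgre1 changed by −0.01 and −0.29. Of 19 lymphocyte, granulocyte and dendritic cell markers 3 fell (15.8%), led by the granulocyte gene S100a9 (−0.84), while the leukocyte marker Ptprc (−0.16) did not pass. Of 16 endothelial and pericyte markers 2 fell (12.5%) and 1 rose (6.25%, against 3.14% of all genes). Pecam1 was at 4.04 ± 0.20 with DMSO and 4.24 ± 0.14 with PHA (SD, n = 3), and Adipoq, an adipocyte gene, was at 3.46 ± 0.08 and 3.51 ± 0.11.

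The RNA of epithelial marker genes changed unevenly. The simple keratins and adhesion genes of luminal cells were expressed in both groups and did not pass the test: Krt8 changed by 0.11, Krt18 by 0.07, Epcam by 0.04 and Cdh1 by 0.21 (adjusted p from 0.11 to 0.749). Cdh1 passed after quantile normalization (adjusted p = 0.048). Within the list of 22 luminal markers 5 fell (22.7%, against 7.07% of all genes) and 3 rose (13.6%, against 3.14%). The claudins Cldn4 (0.49), Cldn3 (0.38) and Cldn7 (0.34) were the rises and Krt7 (−0.98) the largest fall. The falls became 2, 2, 3 and 3 without PHA replicate 1, 2 or 3 or DMSO replicate 3. Basal markers fell: 8 of 21 (38.1%), with a median of −0.23 and none higher. Krt17, a keratin of basal and injured epithelium, read 9.45, 9.87 and 9.75 with DMSO and 8.17, 8.09 and 7.95 with PHA. All PHA arrays were over 1 unit below the DMSO arrays, and the change was −1.62 (SE 0.13, limma adjusted p = 8.32e-05). The laminin chains Lama3 (−0.81) and Lamb3 (−0.78), Krt14 (−0.70) and Krt5 (−0.65) fell with it, while the basal factor Trp63 lay at 4.38 ± 0.19 and 4.34 ± 0.11 (SD, n = 3). Dim second probe sets of Krt14 and Lama3 gave 0.14 and 0.17.

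Squamous differentiation, the programme of stratified epithelium, held the largest share of falls of any epithelial list: 20 of 36 measured genes fell (55.6%) and none rose, with a median of −0.50. Krt16 read 10.31, 10.72 and 10.69 with DMSO and 9.64, 9.34 and 9.48 with PHA (change −1.08, SE 0.15, limma adjusted p = 0.0016). Krt6b (−0.99) and Krt6a (−0.75), its partners in activated epidermis, the protease inhibitor Spink5 (−1.16), the kallikrein Klk6 (−1.08) and involucrin Ivl (−0.92) showed the same separation of the groups. Ivl, a scaffold of the cornified envelope, went from 9.58, 9.89 and 9.91 to 8.94, 8.76 and 8.92. The cornified envelope precursors Sprr1b (−1.02) and Sprr1a (−0.94) lost their calls without PHA replicate 1, PHA replicate 2 or DMSO replicate 2, and Sprr1a also without DMSO replicate 3. Loricrin Lor (0.03) and Krt10 (−0.13) did not pass, whereas filaggrin Flg changed by −0.78 from levels near the lower quartile. Sbsn and Krtdap were also among the 20 falls. Il1rn, placed in this list as an epidermal product, fell from 10.64, 10.37 and 10.36 to 8.87, 8.69 and 8.70, a change of −1.71. The promoters of Ivl, Sprr1a and Il1rn are shown as the squamous counterpart of those above, in the same form. Of 12 squamous genes that fell and have a window, 7 hold TGANTCA, and in the whole squamous list 12 of 24 genes with a window hold it.

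Ivl (chr3:92573736-92573985, minus strand): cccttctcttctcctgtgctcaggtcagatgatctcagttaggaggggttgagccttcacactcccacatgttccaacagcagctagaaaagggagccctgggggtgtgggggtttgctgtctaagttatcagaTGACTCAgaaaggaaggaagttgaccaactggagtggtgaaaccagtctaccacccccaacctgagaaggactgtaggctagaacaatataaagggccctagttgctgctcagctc

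Sprr1a (chr3:92485882-92486131, minus strand): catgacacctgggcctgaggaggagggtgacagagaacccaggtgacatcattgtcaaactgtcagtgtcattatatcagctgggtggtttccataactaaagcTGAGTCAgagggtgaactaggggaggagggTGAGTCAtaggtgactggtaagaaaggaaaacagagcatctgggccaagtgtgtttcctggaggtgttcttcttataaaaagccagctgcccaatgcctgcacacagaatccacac

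Il1rn (chr2:24336610-24336859, plus strand): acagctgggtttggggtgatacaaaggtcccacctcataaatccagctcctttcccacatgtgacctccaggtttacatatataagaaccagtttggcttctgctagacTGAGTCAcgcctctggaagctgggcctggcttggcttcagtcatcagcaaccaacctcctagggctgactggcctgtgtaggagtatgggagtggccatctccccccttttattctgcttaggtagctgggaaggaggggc

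Matches begin 116 bases before the start in Ivl, 146 and 116 in Sprr1a, and 141 in the first of the Il1rn starts, whose other windows in the table have none.

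Signals between cells changed selectively. Of 42 chemokines and their receptors 12 fell (28.6%, against 7.07% of all genes) and 1 rose (2.38%, against 3.14%). The macrophage chemokine Ccl4 read 10.60, 10.65 and 10.52 with DMSO and 9.27, 9.44 and 9.45 with PHA (change −1.21, SE 0.08, limma adjusted p = 4.07e-05). Ccl12 (−1.50), the neutrophil chemokine Cxcl3 (−1.10) and the receptor Cxcr4 (−0.55) fell, Cxcl5 fell by 1.29 with the call lost without PHA replicate 1, PHA replicate 2, DMSO replicate 1 or DMSO replicate 2, and Ccl2 (−0.08) and Cxcl12 (0.43) did not pass. Of 28 cytokines and NF-kB feedback genes 6 fell (21.4%) and 4 rose (14.3%), the rises becoming 2 without DMSO replicate 2 or DMSO replicate 3. Tslp, an epithelial alarmin that acts on mast cells and basophils, fell from 5.78, 6.00 and 5.55 to 4.28, 4.28 and 4.14, and Csf2 from 7.00, 6.57 and 6.51 to 5.67, 5.62 and 5.54. Those changes, −1.54 and −1.08, stand beside rises of Lcn2 (0.63) and Csf1 (0.59), whose groups did not overlap either. Csf1 read 10.41, 10.32 and 10.27 with DMSO and 10.82, 10.80 and 11.13 with PHA. Bmp2, a ligand of the TGF-beta family, fell from 9.61, 9.49 and 9.29 to 7.79, 7.61 and 7.85 (change −1.71, SE 0.10, adjusted p = 2.05e-05). Of 13 EGF family ligands and receptors 1 fell (7.69%, close to the 7.07% of all genes), neuregulin Nrg1 (−0.73). In that list 1 rose (7.69%), Btc (0.37, lost without any array other than PHA replicate 3).

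Beta-catenin targets were called about as often as all genes. Of 27, 2 fell (7.41%, against 7.07%) and 1 rose (3.7%, against 3.14%), with a median of 0.00. The 2 falls became 4 without DMSO replicate 1 and 1 without any other array, and the rise was lost without any array other than DMSO replicate 2. Nkd2 was 1 of the falls (−0.49), and its other probe sets gave −0.67, −0.93 and −0.26. The Wnt-induced Ccn4, given with the matrix genes, is not in this list. Axin2 read 6.77, 6.83 and 6.96 with DMSO and 6.77, 6.89 and 6.80 with PHA, and Lef1 (−0.01) and Ccnd1 (−0.34, adjusted p = 0.0888) did not pass.

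Cholesterol synthesis and uptake held the largest share of rises among the 40 lists. Of 20 measured genes of cholesterol synthesis and uptake 7 rose (35%, against 3.14% of all genes) and none fell, with a median of 0.22. Without PHA replicate 2 the 7 became 4, and after quantile normalization or median centring they became 10. Idi1, an isomerase of the mevalonate pathway, read 7.39, 7.59 and 7.56 with DMSO and 8.29, 8.34 and 7.97 with PHA. The groups did not overlap, and the change was 0.69 (SE 0.10, limma adjusted p = 0.00227). Tm7sf2 (0.80), Cyp51 (0.77), the squalene epoxidase Sqle (0.67) and Hsd17b7 (0.46) rose, Msmo1 (0.38) and Sc5d (0.27) rose with calls lost without single arrays, and Srebf2, which encodes the factor that drives the pathway, changed by −0.01. Of 23 fatty acid genes 3 rose (13%), namely Scd1, Acss2 and Fads2 (0.68), and 1 fell (4.35%), Mid1ip1 (−0.52). That share of rises is above the 3.14% of all genes but below the 14.3% of the cytokine list.

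A minority of amino acid response genes fell. In the list of ATF4 targets 8 of 29 fell (27.6%, against 7.07% of all genes) and none rose. Among the falls was Phgdh, the first enzyme of serine synthesis, from 8.83, 8.94 and 8.98 to 7.98, 7.91 and 7.93 (change −0.97, SE 0.08, limma adjusted p = 0.000121). The other probe sets of Phgdh, of similar brightness, gave −0.89, −0.24 and −0.17, so the size of its fall depends on the probe set. Dimmer probe sets also gave smaller values for Stc2 (−0.65 and −0.24) and Slc7a11 (−0.04), as they did for Fcgr1 (−0.29), Spry2 (−0.16) and Col12a1 (−0.06, 0.07 and 0.13) in the lists above. By the probe sets used, Stc2 (−0.88), Cth (−0.80), Aldh18a1 (−0.70) and the cystine transporter Slc7a11 (−0.63) fell, and Asns (−0.16), Atf4 (−0.14) and Trib3 (0.06) did not pass. Among 25 PI3K and FOXO target genes 4 fell (16%) and 3 rose (12%, against 3.14% of all genes). The 2 rises that held without any 1 array were those of Sesn3 (0.68), from 6.87, 7.04 and 6.90 to 7.61, 7.61 and 7.64, and Pink1 (0.39). The 4 falls, led by Fbxo32 (−0.50), were each lost without some array.

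Complement and coagulation genes fell, 8 of 19 (42.1%, against 7.07% of all genes) with none higher and a median of −0.29. Besides C5ar1 and Rarres2 these were the clotting factor chain F13a1 (−1.16), tissue factor F3 (−0.91), F10 (−0.83), Tfpi2 (−0.70), the C3a receptor C3ar1 (−0.50) and Cfb (−0.45). Of 25 transition factors and cadherins 8 fell (32%) and 1 rose (4%, against 3.14% of all genes). The falls became 4 without PHA replicate 1, PHA replicate 2 or DMSO replicate 3, and 5 without PHA replicate 3 or DMSO replicate 2. The falls of the activin chain Inhba (−0.88), the repressors Zeb1 (−0.74) and Snai2 (−0.39) and the cadherin Cdh11 (−0.54) held without any 1 array. Further probe sets gave 0.07 for Inhba, 0.08, −0.35 and −0.52 for Zeb1, and −0.98 for Cdh11.

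The 2 lists of cell cycle genes differed. Of 38 replication genes 6 fell (15.8%, against 7.07% of all genes) and none rose. The 6 became 3, 2, 2 and 2 without PHA replicate 2, PHA replicate 3, DMSO replicate 2 or DMSO replicate 3. Of 39 mitotic genes 1 fell (2.56%) and 2 rose (5.13%, against 3.14% of all genes). Averaged over the mitotic list the DMSO arrays were at 6.38, 6.88 and 7.12 and the PHA arrays at 6.94, 6.77 and 6.55, so the groups overlapped. The proliferation marker Mki67 was 7.91, 9.10 and 9.29 against 8.81, 8.59 and 8.04 (change −0.29, SE 0.32, adjusted p = 0.625).

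The first set also allows the PHA mean to be set against the ICG mean directly. The DMSO arrays do not enter that difference. Their spread does enter its SE and p, which come from the same fit of 9 arrays. There 4939 genes (27.1%) were called, 2497 (13.7%) higher with PHA and 2442 (13.4%) lower, the median difference over all genes being −0.00. Both comparisons use the same PHA arrays, so their calls are not independent and each is given by its own values. Tph1 was at 7.98, 8.19 and 8.52 with ICG, 2.27 above PHA (limma adjusted p = 3.46e-05 for PHA minus ICG), and PHA was also lower for Bmp2 (PHA minus ICG −1.67), Krt17 (−1.59), Tchh (−1.54) and Csf2 (−1.09). Arg1 was at 6.56, 6.26 and 5.54 with ICG, and PHA minus ICG was 0.24 (SE 0.30, adjusted p = 0.623). Mmp1a (−0.33, SE 0.13, adjusted p = 0.0967), Mmp10 (0.22, SE 0.19) and Il1rn (0.07, SE 0.12) were likewise not called between the inhibitors. Fibroblast markers were more often higher with PHA than with ICG, 9 of 20 against 2 lower, and squamous genes more often lower, 14 of 36 against 1 higher. Metabolic and cell cycle lists also differed between the inhibitors. All 16 called cholesterol genes of 20 were higher with PHA, where the median difference was 0.66, and all 26 called ATF4 genes of 29 were lower, with a median of −1.54. Idi1 was at 6.39, 6.50 and 6.40 with ICG, 1.77 below PHA (adjusted p = 3.74e-06), and Cth at 9.89 to 10.03, 4.14 above it (adjusted p = 2.16e-07 for PHA minus ICG). Of 38 replication genes 30, and of 39 mitotic genes 31, were also higher with PHA than with ICG.

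In the second set, whose arrays are not shared with this comparison, PHA was given together with ICG, so its values do not isolate PHA. There 368 genes (2.02%) were called, 87 higher (0.478%) and 281 lower (1.54%). With the replicate number as a block, which treats same-numbered arrays as pairs though the labels name no pairs, 1442 genes were called. Without PHA+ICG replicate 2 or 3, or DMSO replicate 2 or 3, the 368 became 189, 89, 67 and 56. Of the 129 genes at least 2-fold lower with PHA in the first set, 109 had a change below 0 in the second, 18 were called lower and 1 higher (53 and 5 with the block), with a median of −0.57 against 0.00 over all genes. Of all 1286 genes lower with PHA, 64 were also lower in the second set, 4.98% of the one list and 22.8% of the other, and 13 were called higher. With the block, where 6.01% of all genes were lower and 1.92% higher, these were 260 genes, 20.2% and 23.8% of the lists, and 40. For the 572 genes higher with PHA the numbers were 3 shared, 0.524% and 3.45% of the lists, and 10 called in the opposite direction, and with the block 18 shared, 3.15% and 5.16%, and 44 opposite. Arg1 read 8.50, 8.33 and 8.06 with DMSO and 5.34, 4.84 and 4.69 with PHA+ICG, a change of −3.34 (SE 0.21, limma adjusted p = 0.00132). Has2 (−1.45, adjusted p = 0.00943), Mmp1a (−1.42, adjusted p = 0.0162), Cma1 (−1.55, adjusted p = 0.0116) and Mfap5 (−1.09, adjusted p = 0.0224) were lower there as well. Krt17 (−0.57), Bmp2 (−0.73) and Tph1 (−0.28, from DMSO levels of 4.35 to 4.75) were not called without the block. With it Bmp2 was called (adjusted p = 0.0213), as were Mmp10 (−1.41, adjusted p = 0.00443) and Il1rn (−1.47, adjusted p = 0.00104), and Krt17 (adjusted p = 0.611) and Tph1 (adjusted p = 0.438) were not. The cholesterol genes went the other way, 10 of 20 lower (17 with the block) and none higher, with Idi1 falling from 11.08, 11.36 and 11.29 to 9.81, 9.66 and 9.52.

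**Figure D5:**
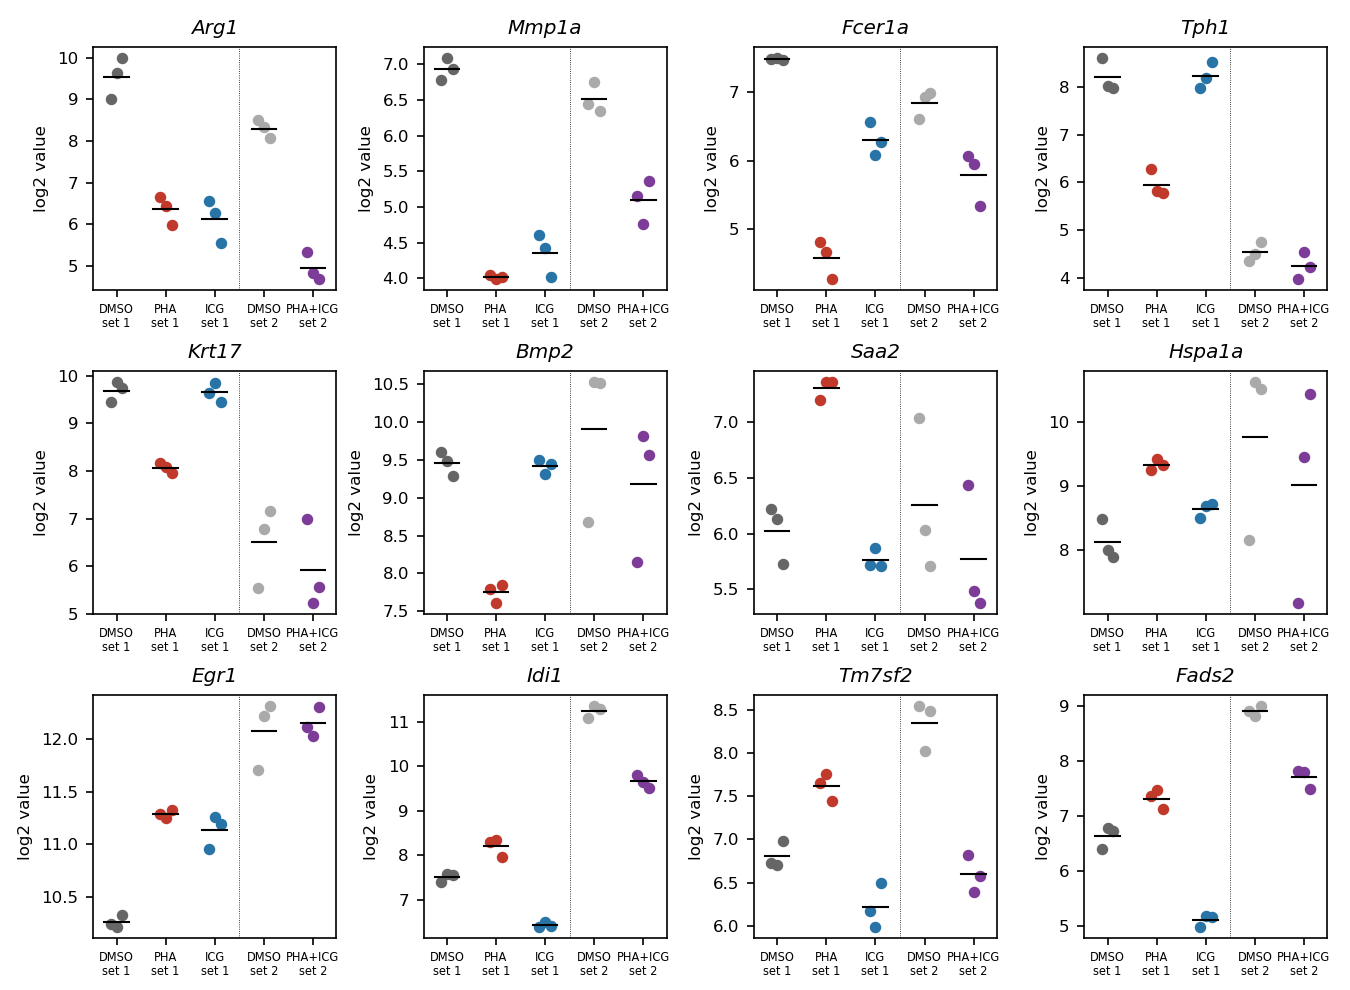
Log2 values of 12 genes in all 15 arrays (points, arrays; black bars, group means; the dotted line separates the first set from the second, and each panel has its own axis). Arg1 and Mmp1a are low in all 3 inhibitor groups, while in the first set Tph1, Krt17 and Bmp2 are low with PHA and not with ICG, and Idi1, Tm7sf2 and Fads2 are raised with PHA and lowered with ICG and with PHA+ICG.

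The fit of all 15 arrays, in which the wider spread of the second set enters, left 6 of the 15 protease falls, 7 of the 11 mast cell and basophil falls, 4 of the 11 fibroblast falls, 1 of the 20 squamous falls and 2 of the 7 cholesterol rises. It left 1 of the 7 ERK and ETS falls, 1 of the 9 immediate early falls, 2 of the 12 chemokine falls, 3 of the 8 macrophage falls, 8 of the 19 matricellular falls, and none of the 4 MET axis, 8 basal or 8 transition factor falls. Over all genes that fit called 164 lower, against 1286 in the main fit, and 18 higher, against 572. A measure of RNA integrity moved a little with the groups: the actin probe sets at the 3′ end exceeded those at the 5′ end by 0.447 ± 0.124 log2 units with DMSO and 0.541 ± 0.056 with PHA (SD, n = 3), and its part in the results was not tested.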

How the data were processed

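Total RNA of mammospheres was hybridised to Affymetrix mouse expression arrays. The deposited values are on a log2 scale and were used as given; the submitters' processing notes name RMA and MAS5 without their roles, and whether both sets were normalized together is not given in the sources used here. Of 45101 probe sets, 34945 have 1 gene symbol in the platform annotation, 932 several, 9160 none and 64 are controls; each of 18193 genes was represented by its probe set with the highest mean over 15 arrays. limma 3.58.1 in R 4.3.3 (lmFit, eBayes, 6 residual and 3.98 prior degrees of freedom) was fitted to the 9 arrays of the first set, and separately to the 6 of the second, with Benjamini-Hochberg adjustment over all genes; no filter on dim genes was applied. Such files carry no detection calls. On simulated arrays with independent normal noise for each gene and array, 200 genes changed by 0.5 or 1 log2 unit among 18193 were recovered at 57.5% and 95.5%, with 4.96% and 5.91% of calls false, and no gene was called when none was changed. The simulation holds no shifts that many genes of 1 array share, so it cannot show how many calls in the real arrays are false.

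Genes named are the 20 highest and 20 lowest called genes whose groups do not overlap (clone-like symbols passed over), up to 6 called genes per list and direction, a fixed set of pathway genes and the cell type markers; a few list members that did not pass are named for contrast. The comparison, the 40 gene lists and the named genes were chosen with earlier results of these data known. Same-numbered DMSO and PHA arrays of the first set deviated from their group means with correlations of −0.248, −0.225 and −0.262, so equal numbers there were taken as names only. For the second set the values were 0.614, 0.363 and 0.277. Unlike-numbered arrays there gave 0.238 and 0.351 between replicates 2 and 3, and −0.514 to −0.310 where replicate 1 was 1 of the 2. Replicate 1 of both groups thus stood apart, and these values do not settle whether replicates 2 and 3 pair by number. Values with and without the block are therefore given side by side. Promoter windows are RefSeq's, GRCm38.p6, matched by symbol. Alternatives were other scaling, other sets of arrays, leaving out each array, a replicate block, averaged probe sets, leaving out the dimmest genes, and a trended robust prior. Figures were drawn in Python 3.11.15 with matplotlib 3.10.9.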

Additional observations from a re-analysis of the deposited data

How the results depend on the processing

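Of 235 named genes, 214 were called; of the 235, 219 kept their direction and side of the threshold under quantile normalization, 213 under median centring, 199 with the replicate block, 213 with only the 6 arrays compared, and 72 with all 15 arrays, and no called gene changed direction under any alternative run. The 1858 calls became 1202 with the replicate block and 182 with all 15 arrays, and 1005 to 1691 when 1 array was left out. The 572 higher calls became 902 under quantile normalization, 1188 under median centring, 311 with the replicate block, 18 with all 15 arrays, and 271 to 548 without 1 array. The 1286 lower calls became 164 with all 15 arrays and 734 to 1143 without 1 array. Genes at least 2-fold lower, 129, became 74 with all 15 arrays, and those at least 2-fold higher, 7, became 2. Leaving out 1 array of PHA or ICG gave 3922 to 4399 of the 4939 calls between them. In the second set the 368 calls became 1442 with the replicate block, 2413 with all 15 arrays and 56 to 389 without 1 array, the lowest being 67 and 56 without DMSO replicate 2 or 3. The replicate block in the first set ended the calls of 36 of the named genes. Causes of these shifts were not tested. The second set brings both its wider spread and more residual degrees of freedom, 10 in place of 6, into the fit of 15 arrays. The absence of detection calls limits what can be said of genes near the low end of the scale, such as Mmp1a and Fcer1a with PHA, where differences may be compressed.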
